A study of Danio rerio with 8 samples.

Results

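The ovary of female zebrafish fed 100 ppb TCDD was compared with the ovary of females fed 0 ppb. TCDD is 2,3,7,8-tetrachlorodibenzo-p-dioxin, a persistent dioxin, and 1 ppb is 1 ng per g of feed. The comparison rests on 4 of the 8 arrays of the series, those labelled as whole ovary at 100 ppb (2 arrays) and at 0 ppb (2 arrays), and the other 4 arrays hold the 10 ppb and 40 ppb ovaries. All fish were adult AB-strain females aged 6 to 8 months that received the diet for 15 days and were spawned weekly. The 100 ppb group ate trout chow carrying tritium-labelled TCDD, and the 0 ppb group ate chow treated with the solvent acetone alone. RNA was isolated from single ovaries, and 3 µg from each of 5 females was combined into a 15 µg pool for each dose. Each dose is therefore 1 pool measured on 2 arrays, replicate 1 and replicate 2. The p-values below rest on the spread between arrays of a pool, estimated over all 4 pools together, and carry no variation between fish. That spread was widest at 10 ppb, where 190 tested probe sets differed at least 2-fold between arrays, against 13 at 100 ppb and 20 at 0 ppb. The samples hold whole ovaries, with germ cells, follicle cells, stroma, vessels and blood together.

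Dioxins act mainly through the aryl hydrocarbon receptor (AHR), a ligand-activated transcription factor that pairs with ARNT and binds response elements near its target genes. Cytochrome P450 1A is the best known of these targets, and ahr2 is the receptor through which TCDD acts in zebrafish. The fish ovary consists of oocytes at successive stages, each enclosed by granulosa and theca cells that make estrogens, and growing oocytes take up vitellogenin that the liver makes.

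The arrays are Affymetrix 3' expression arrays, on which each probe set gives 1 intensity, and some probe sets are annotated to several genes. Levels below are log2(intensity + 16) after quantile normalisation over all 8 arrays, and differences are 100 ppb minus 0 ppb on this log2 scale, with the SE of the fit (n = 2 arrays per pool). The scale understates changes of dim probe sets. Replicate 1 of both pools was scanned on a shared day and replicate 2 of both on a later one. Median deposited intensity was 51.8 and 29.8 on the 100 ppb arrays, against 62.25 and 28.7 on the 0 ppb arrays. Across the 15502 probe sets other than controls, which are no replicates of each other, the arrays of the 100 ppb pool had r = 0.991 and those of the 0 ppb pool r = 0.992. The gapdh control probe sets, whose 3'/5' ratio is a sign of RNA integrity, gave ratios of 0.949 and 1.06 on the 100 ppb arrays, against 1.38 and 1.34 on the 0 ppb arrays. The acta1 control probe sets gave 3'/5' ratios of 0.183 and 0.540 at 100 ppb, against 0.482 and 0.628 at 0 ppb, where the pools overlapped. The part of these ratios in the differences below was not tested. The label of the tissue was checked on 8 markers of the ovary, among them the oocyte genes zp3b, zar1, buc and bmp15. None of the 8 was called changed, with gsdf below the minimum difference (0.76, adjusted p = 0.0373). All were above the tag control probe sets on every array of both pools, and their summed level was 12168 and 12041 at 100 ppb, against 10463 and 11095 at 0 ppb in normalised intensity. Most of this sum came from zp3b and zar1 on each array. Of the 8, buc (-0.38) and ddx4 (-0.29) averaged lower at 100 ppb and the others higher.

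The 100 ppb ovary had a 16.4-fold higher cyp1a than the 0 ppb ovary. Its falls included 5 keratins, the annexins anxa1a and anxa2a, and some genes of lysosomal proteases, blood cells and smooth muscle. Other markers of epithelium and blood cells did not follow, as cdh1 (0.65) and lyz (0.68) were higher at 100 ppb and not called. Of 9301 probe sets tested, 116 (1.25%) had an adjusted p under 0.05 in limma's test and a log2 difference of at least 1 in size, and these are called changed here. Of them 28 (0.301%) rose and 88 (0.946%) fell. The median difference of all tested probe sets was 0.0048. Without a minimum difference 481 (5.17%) passed, 198 higher and 283 lower, so most of the differences beyond array spread were smaller than 2-fold. With 1 probe set per gene, the brightest, 80 of 6335 genes (1.26%) were called, 15 higher (0.237%) and 65 lower (1.03%). These shares are the background for every count in a gene list below. On the 2 arrays of each pool all 116 probe sets stood apart from the other pool. The difference was at least 1 on the first shared scan day for 103 of them and on the second for 97. Selection on these same arrays nearly fixes such separation, here and for the called genes below, so it adds no support to the calls.

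**Figure D1:**
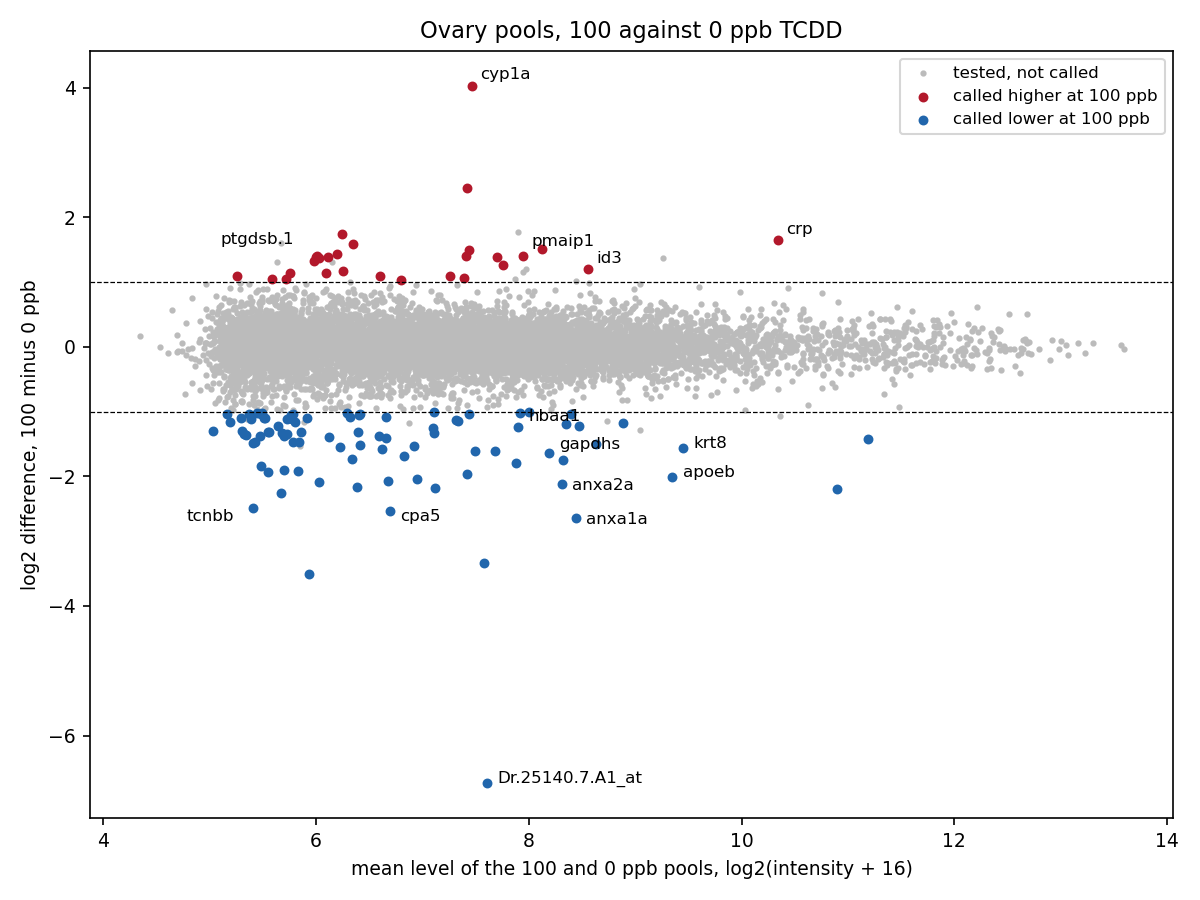
Each point is 1 of 9301 tested probe sets, with the mean level of the 100 and 0 ppb pools on the horizontal axis and the log2 difference, 100 minus 0 ppb, on the vertical axis. Dashed lines mark a difference of 1 in either direction. The 28 called rises are red and the 88 called falls blue; cyp1a stands alone at 4.04, and the unnamed probe set Dr.25140.7.A1_at at -6.73.

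The called falls had a median difference of -1.35 and the called rises one of 1.38. Only 17 called probe sets differed by 2 or more, 2 higher and 15 lower. On 10 of the 88 falls the 100 ppb pool read no higher than the tag controls, probe sets that match no zebrafish transcript, on both arrays, and these falls are given as bounds ("at least N-fold lower"). On a further 13 falls this held for 1 of the 2 arrays at 100 ppb, among them neurod6b, aqp3a, laptm5, lgals3bp.1 and pkp1b. Their differences are printed as measured, though they lie near the floor. In the deposited scaling, with no normalisation between arrays, 13 of the 116 probe sets were called, 1 higher and 12 lower. Under a scaling of each array to a common median 121 were called, of which 109 were shared.

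**Figure D2:**
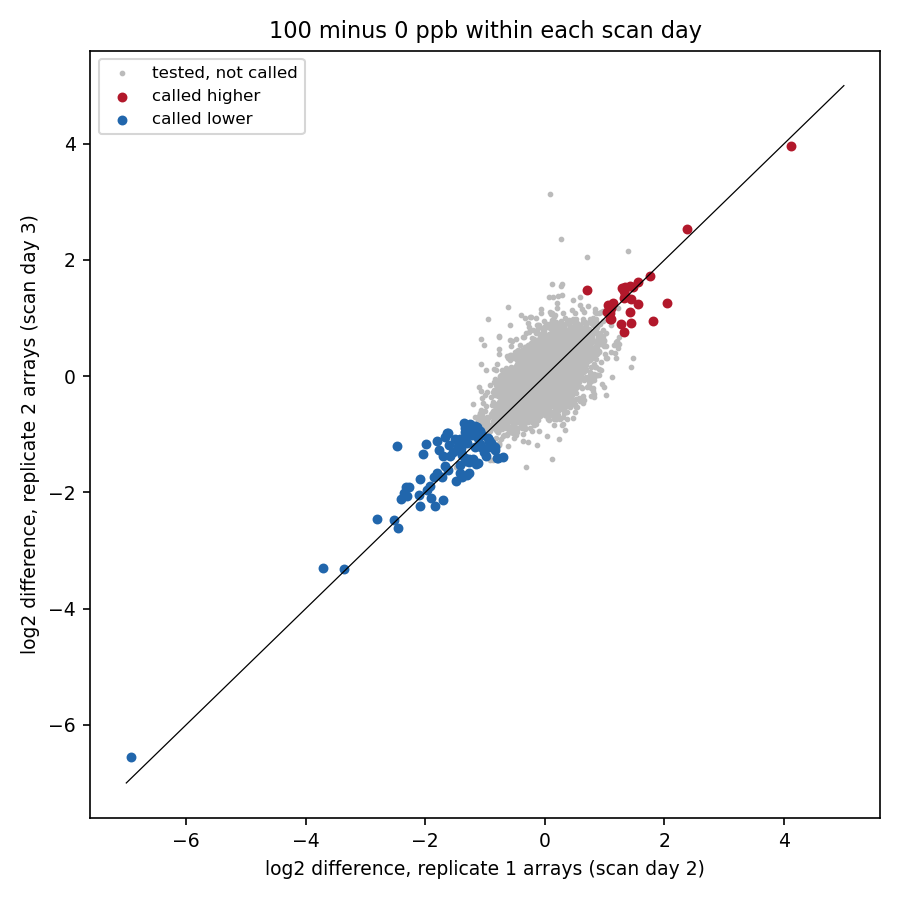
Each point is a tested probe set, with the log2 difference 100 minus 0 ppb between the replicate 1 arrays (first shared scan day) on the horizontal axis and between the replicate 2 arrays (second shared scan day) on the vertical axis. The line marks equal differences. All 116 called probe sets lie on 1 side of 0 on both days, as their selection on these arrays nearly fixes, with a median gap of 0.24 between days.

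Among the genes of the AHR pathway, 1 of 8 tested rose and none fell. cyp1a, which encodes the P450 that oxidises aryl hydrocarbons, had a level of 9.48 and 9.49 on the 100 ppb arrays, against 5.37 and 5.53 on the 0 ppb arrays. The 2 arrays of each pool were nearly equal and the pools did not overlap. The difference was 4.04 ± 0.32 (16.4-fold, adjusted p = 7.96e-05), the largest rise of the comparison. In deposited intensity cyp1a read 946.4 and 534.4 at 100 ppb, against 38.1 and 21.8 at 0 ppb. tiparp, a poly(ADP-ribose) polymerase known as a TCDD-inducible target, had 7.46 and 7.38 at 100 ppb, against 6.50 and 6.42 at 0 ppb. Its arrays did not overlap either, but the difference of 0.96 ± 0.16 (adjusted p = 0.00901) lay under the minimum of 1. The receptor gene ahr2 differed by 0.33 ± 0.20 (adjusted p = 0.353), and nqo1, a quinone reductase that is an AHR target in mammals, by -0.22 (adjusted p = 0.435). The probe sets of ahr1a, arnt2 and cyp1c1 were too dim to be tested.

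Of 8 tested genes of keratins, the intermediate filament proteins of epithelia, 5 fell and none rose. The keratin list also took in icn (-0.84) and krtcap2 (-0.15), which encode no keratin and were not called. The median of its 10 tested genes was -1.22, where all tested genes had a median of 0.0039 and 1.03% of them fell. krt18b, a type I keratin, had 5.38 and 5.22 at 100 ppb, against 7.46 and 7.46 at 0 ppb (-2.16 ± 0.16, adjusted p = 5.77e-05). krt4, a type II keratin of surface epithelia, had 5.94 and 5.91 at 100 ppb, against 7.78 and 8.14 at 0 ppb (-2.04 ± 0.18, adjusted p = 0.000247). In both genes every 100 ppb array lay below every 0 ppb array, by more than the gap between arrays of a pool. krt94, a type I keratin, had 6.30 and 6.56 at 100 ppb, against 8.28 and 8.52 at 0 ppb (3.91-fold lower). krt8, the type II partner of keratin 18 in simple epithelia, had 8.65 and 8.68 at 100 ppb, against 10.04 and 10.42 at 0 ppb (2.97-fold lower). krt18a.1 had 8.06 and 7.70 at 100 ppb, against 9.37 and 9.40 at 0 ppb (2.83-fold lower). The pools did not overlap in these 3 genes either. krt15 had 5.44 and 5.98 at 100 ppb, against 6.56 and 6.74 at 0 ppb, a difference of -0.94 ± 0.19 (adjusted p = 0.0209) under the minimum of 1. krt5 differed by 0.68 in the other direction (adjusted p = 0.0651). krt8 and krt18a.1 are neighbours in the current zebrafish gene table with no coding gene between them, and krt18b and krt4 have 1 gene between them. In whole ovary a lower level may reflect fewer cells of a type or less RNA per cell, and these cannot be told apart here.

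Annexins bind phospholipid membranes when calcium rises, and S100 proteins are small calcium-binding partners of several of them. Of 14 tested genes of both families 3 fell and 1 rose (median -0.44), where 1.03% of all tested genes fell and 0.237% rose. anxa1a had 6.99 and 7.25 at 100 ppb, against 9.80 and 9.72 at 0 ppb, a difference of -2.64 ± 0.12 (6.22-fold lower, adjusted p = 2.92e-06). anxa2a had 7.10 and 7.41 at 100 ppb, against 9.42 and 9.32 at 0 ppb (-2.12 ± 0.14, adjusted p = 2.38e-05). s100a10b, which encodes the binding partner of annexin A2 in mammals, had 6.75 and 6.61 at 100 ppb, against 8.37 and 8.22 at 0 ppb (-1.61 ± 0.18, adjusted p = 0.000937). In all 3 genes both 100 ppb arrays lay below both 0 ppb arrays. anxa5b differed by -0.58 (adjusted p = 0.103). s100v1 rose, with 6.31 and 6.17 at 100 ppb, against 5.21 and 5.19 at 0 ppb (1.04 ± 0.15, adjusted p = 0.00431). Its call ended without either 0 ppb array and without 100 ppb replicate 1, where the adjusted p was highest at 0.0631.

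On a list of 23 tested genes of tight junctions, adherens junctions and desmosomes, 1 gene fell, none rose by its brightest probe set, and the median was 0.18. cldn3d, a claudin of tight junctions, fell to 4.87 and 4.83 at 100 ppb, against 5.76 and 6.00 at 0 ppb (-1.03 ± 0.16, adjusted p = 0.00677), a fall that was not called without 0 ppb replicate 2 (-0.91, adjusted p = 0.0902), without 100 ppb replicate 1 or 2, or under the common median scaling (-0.96). E-cadherin, cdh1, had 9.38 and 9.55 at 100 ppb, against 8.89 and 8.75 at 0 ppb, a difference of 0.65 ± 0.13 (adjusted p = 0.0191) under the minimum. cldnd, another claudin, had 12.94 and 12.94 at 100 ppb, against 12.55 and 12.31 at 0 ppb (0.51, adjusted p = 0.0305). In cdh1 and cldnd both 100 ppb arrays were above both 0 ppb arrays. dspa, desmoplakin, differed by -0.76 ± 0.16 (adjusted p = 0.0243) and was not called. pkp1b, a plakophilin of the desmosomal plaque that was in no list, fell by 1.01 (adjusted p = 0.0137). Its call ended without 100 ppb replicate 1 (-0.83) or either 0 ppb array (adjusted p up to 0.133), and under the common median scaling.

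Probe sets of the same junction gene did not behave alike. cldng fell by 3 of its 4 tested probe sets, with differences of -1.37, -1.03 and -1.01. The calls at -1.03 and -1.01 ended without any 1 of the 4 arrays (adjusted p up to 0.237 and 0.174), and 1 of them also under the common median scaling. Its brightest probe set had 12.50 and 12.60 at 100 ppb, against 12.30 and 12.24 at 0 ppb (0.28, adjusted p = 0.112). The epithelial adhesion gene epcam rose by 1.59 ± 0.24 (adjusted p = 0.00489) on 1 probe set, whose call ended without 0 ppb replicate 1 or 100 ppb replicate 2 (adjusted p = 0.0754). On the brighter probe set it had 12.32 and 12.37 at 100 ppb, against 11.85 and 12.37 at 0 ppb (0.23, adjusted p = 0.428), where the pools overlapped. The 4 epithelial markers krt4, krt8, epcam and cdh1 had a summed level of 6182 and 6443 in normalised intensity at 100 ppb, against 5386 and 7309 at 0 ppb. The brighter epcam probe set made up most of this sum on each array, so the overlap of the sum repeats that of this probe set. It is no measure of the 4 markers alike, and in krt4 and krt8 the pools did not overlap.

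**Figure D3:**
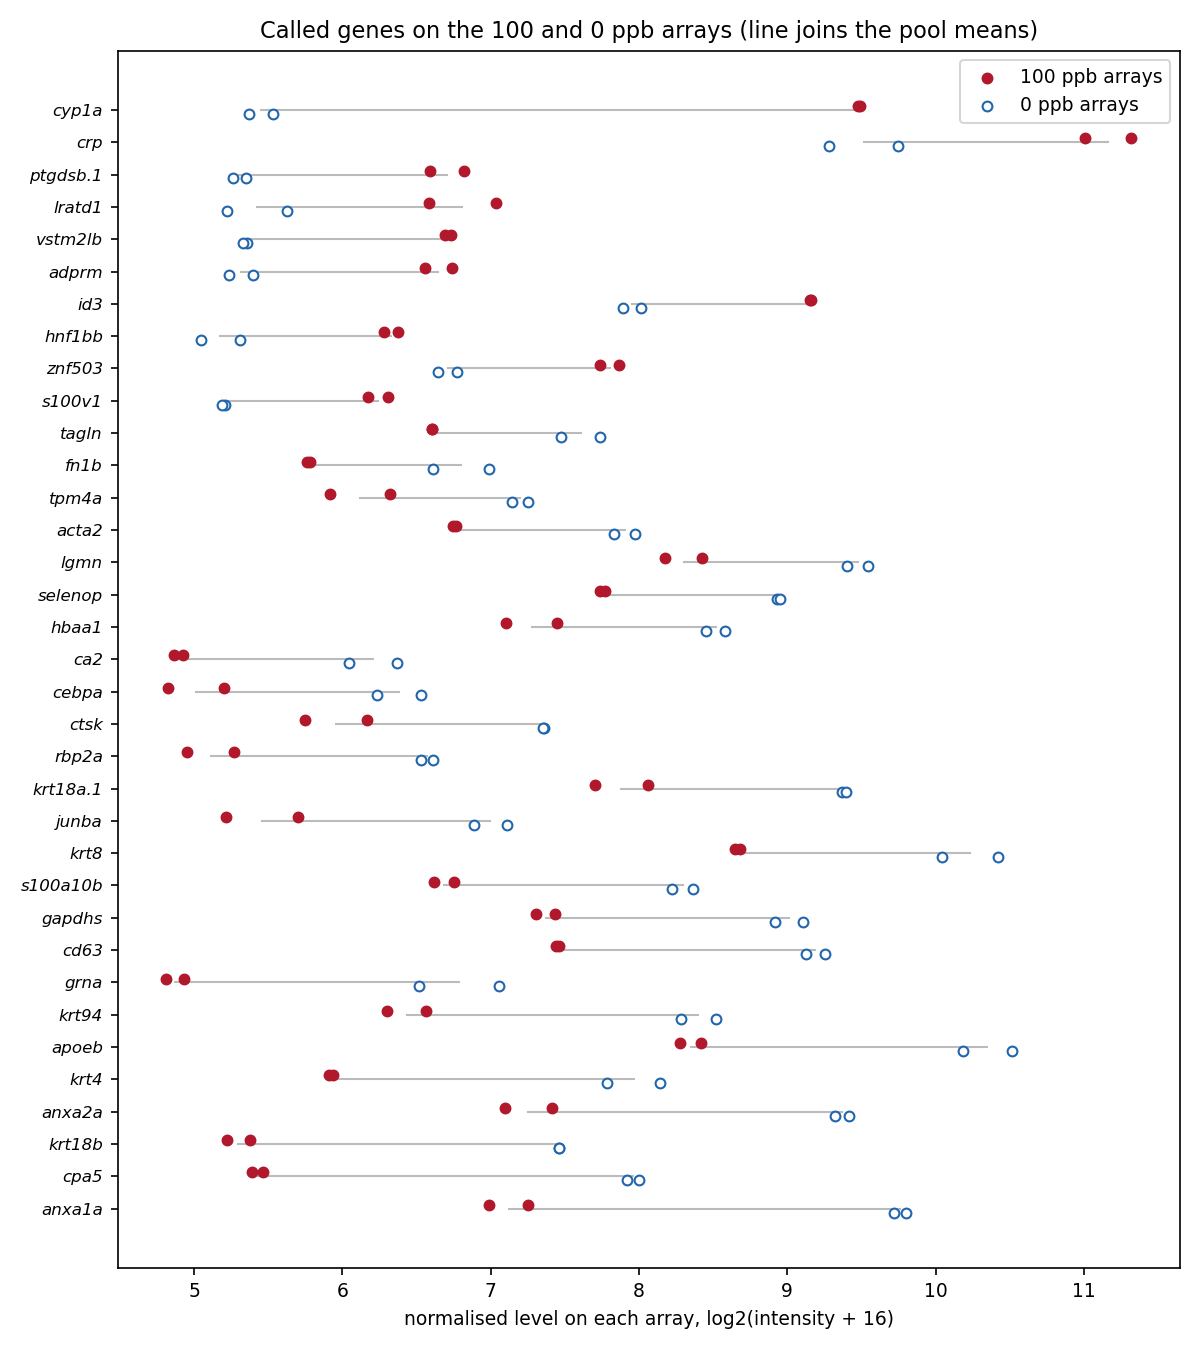
Levels of 35 called genes on the 100 ppb arrays (filled red) and the 0 ppb arrays (open blue), as log2(intensity + 16) after normalisation, with genes ordered down the page by their difference and a line joining the pool means. In every row the red points lie on 1 side of the blue ones; cyp1a has the widest gap upward and anxa1a the widest downward.

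Of 35 tested genes of actin binding and smooth muscle 4 fell and none rose, with a median of -0.33 and 26 of 35 below 0. In the deposited scaling none of them was called, and with a pseudocount of 64 only 1 was. acta2, smooth muscle alpha actin, had 6.77 and 6.75 at 100 ppb, against 7.83 and 7.97 at 0 ppb (-1.15 ± 0.14, adjusted p = 0.00194). tagln, transgelin, had 6.6 and 6.6 at 100 ppb, against 7.74 and 7.47 at 0 ppb (-1.0 ± 0.14, adjusted p = 0.00348), and without 0 ppb replicate 1 it was not called (-0.87, adjusted p = 0.0516). The pools were apart in both genes, and the summed level of these 2 smooth muscle markers was 174 and 173 at 100 ppb, against 410 and 397 at 0 ppb in normalised intensity. tmsb1, of the thymosin beta family that binds actin monomers, had 6.11 and 6.20 at 100 ppb, against 7.80 and 7.57 at 0 ppb (2.89-fold lower). tpm4a, a tropomyosin, fell by 1.08 (adjusted p = 0.00692), and without 100 ppb replicate 2 it was not called (-0.88, adjusted p = 0.0932), nor without either 0 ppb array. A further set of cytoskeletal genes passed on p but not on size. They were tagln2 (-0.93), tmsb4x (-0.89, adjusted p = 0.00374), arpc1b of the Arp2/3 complex (-0.86), the actin crosslinker flna (-0.76) and profilin, pfn1 (-0.66, adjusted p = 0.00399). Cytoplasmic beta actin, actb2, had 11.73 and 11.72 at 100 ppb, against 11.88 and 11.91 at 0 ppb (-0.17, adjusted p = 0.321). rtkn2, which was in no list, fell, with 7.04 and 6.93 at 100 ppb, against 8.89 and 8.66 at 0 ppb (-1.79 ± 0.21, adjusted p = 0.00144).

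Matrix genes and integrins showed 2 falls and no rise among 28 tested genes, with a median of -0.22 and 24 of 28 below 0. ctsk, cathepsin K, which cuts collagen, had 5.75 and 6.17 at 100 ppb, against 7.36 and 7.35 at 0 ppb (-1.4 ± 0.23, adjusted p = 0.00796). fn1b, a fibronectin, had 5.78 and 5.76 at 100 ppb, against 6.61 and 6.99 at 0 ppb (-1.03 ± 0.20, adjusted p = 0.0171). The pools were apart in both. The call of ctsk ended without 100 ppb replicate 1 (adjusted p = 0.105) or either 0 ppb array, and that of fn1b without any 1 of the 4 arrays (adjusted p up to 0.143). The collagens col5a2a (-0.97, adjusted p = 0.038) and col1a1a (-0.63, adjusted p = 0.114) were not called. The collagenase mmp13a had 8.36 and 8.44 at 100 ppb, against 9.75 and 9.62 at 0 ppb. Its difference of -1.28 ± 0.36 had an adjusted p of 0.0652, and of 0.0496 with the replicate number as a block.

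Lysosomal proteases were among the falls. Of 13 tested cathepsins, cystatins and legumain 3 fell and none rose, with a median of -0.50. The 2 probe sets of ctsl.1, a cathepsin L gene, read 5.00 and 4.95 at 100 ppb, against 7.27 and 6.86 at 0 ppb, and 4.46 and 4.61 at 100 ppb, against 6.86 and 6.73 at 0 ppb. Both were called, and on the second the 100 ppb pool was not above the tag controls, which puts its fall at 4.06-fold at least (adjusted p = 9.3e-05). On both probe sets the 10 ppb pool averaged below the 100 ppb pool, at 4.51 and 4.32, against 4.98 and 4.54. Besides ctsk above, lgmn, an asparagine-specific endopeptidase, fell, with 8.43 and 8.18 at 100 ppb, against 9.41 and 9.54 at 0 ppb (-1.17 ± 0.25, adjusted p = 0.0243). Its call ended in each fit without 1 of the 100, 0 or 40 ppb arrays, with an adjusted p of up to 0.215 without 100 ppb replicate 2. Cathepsin D, ctsd, differed by -0.55 (adjusted p = 0.0544), and the cathepsin S gene ctss2.2 by -0.95 (adjusted p = 0.0409). cd63, a tetraspanin of late endosomes and lysosomes that was in no list, had 7.44 and 7.46 at 100 ppb, against 9.25 and 9.12 at 0 ppb (-1.74 ± 0.16, adjusted p = 0.000318).

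Leukocyte genes fell in 4 of 22 tested cases (18.2%, where 1.03% of all tested genes fell) and none rose, with a median of -0.44. cpa5, a carboxypeptidase that marks mast cells in zebrafish, had 5.47 and 5.39 at 100 ppb, against 7.92 and 8.00 at 0 ppb (5.78-fold lower, adjusted p = 0.000326). grna, a progranulin gene, had 4.81 and 4.93 at 100 ppb, against 6.52 and 7.06 at 0 ppb (-1.92 ± 0.29, adjusted p = 0.0049). marco, a macrophage scavenger receptor, had 4.74 and 4.55 at 100 ppb, against 6.00 and 5.99 at 0 ppb, a fall of at least 2.33-fold (adjusted p = 0.00374). laptm5, a lysosomal membrane protein of blood cells, fell by 1.02 (adjusted p = 0.0256). All 4 stood apart between pools. Without 1 array cpa5 kept its call, while the other 3 lost theirs. grna lost it without 0 ppb replicate 2 (adjusted p = 0.0793) or either 100 ppb array, marco without 100 ppb replicate 2 (adjusted p = 0.0555) or either 0 ppb array, and laptm5 without either 0 ppb array (adjusted p up to 0.18), 100 ppb replicate 1 or either 40 ppb array. laptm5 also lost it under the common median scaling, where its difference was just under 1 in size. Below the minimum size were cd74b, the invariant chain of antigen presentation (-0.94, adjusted p = 0.00373), and srgn, a granule proteoglycan (-0.87, adjusted p = 0.0111). Lysozyme, lyz, had 6.21 and 6.41 at 100 ppb, against 5.65 and 5.62 at 0 ppb, the opposite direction (0.68, adjusted p = 0.0311). The 4 probe sets of the neutrophil gene mpx were too dim to be tested. The summed level of the 4 leukocyte markers with a probe set was 106 and 120 in normalised intensity at 100 ppb, against 310 and 322 at 0 ppb. Most of this sum came from cpa5 at 0 ppb, and its largest part from lyz at 100 ppb, so it mainly repeats the fall of cpa5.

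Of 3 tested genes on the red blood cell list 2 fell, hbaa1 and ca2, where 1.03% of all tested genes fell. Apart from ca2, hbaa1 was the only called gene of this list. hbaa1, an adult alpha globin, had 7.11 and 7.45 at 100 ppb, against 8.46 and 8.58 at 0 ppb (-1.24 ± 0.17, adjusted p = 0.00279). ca2, carbonic anhydrase 2, had 4.93 and 4.87 at 100 ppb, against 6.04 and 6.37 at 0 ppb (-1.31 ± 0.17, adjusted p = 0.00224), and a second probe set was too dim to be tested. The 2 genes differed over the lower doses. ca2 averaged 6.21 at 0 ppb, 5.32 at 10 ppb and 5.15 at 40 ppb, whereas hbaa1 averaged 8.52, 8.64 and 8.68. The heme gene blvrb, biliverdin reductase B, differed by -0.27 (adjusted p = 0.223), and alas2 was not tested. The summed level of the 3 red cell markers, most of it from hbaa1 on each array, was 151 and 181 in normalised intensity at 100 ppb, against 398 and 445 at 0 ppb. The dim red cell probe sets did not follow. alas2 read 4.95 and 4.68 at 100 ppb, against 4.89 and 4.81 at 0 ppb, and the second probe set of ca2 5.07 and 4.95 at 100 ppb, against 4.72 and 4.83 at 0 ppb, so that the pools overlapped in alas2 and the 100 ppb arrays were the higher ones in ca2. The part of the cell makeup of the pools in the other falls was not tested.

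Coagulation genes fell in 2 of 8 tested cases, where 1.03% of all tested genes fell. f13a1b, the A subunit of coagulation factor XIII, a transglutaminase, was called on both tested probe sets. They read 5.52 and 5.75 at 100 ppb, against 7.63 and 7.79 at 0 ppb, and 6.80 and 6.94 at 100 ppb, against 8.47 and 8.49 at 0 ppb, so that the gene was 4.21-fold and 3.06-fold lower. tfpia, an inhibitor of the tissue factor pathway, had 4.78 and 4.59 at 100 ppb, against 6.20 and 6.12 at 0 ppb. The fall was 2.61-fold or more (adjusted p = 0.0039), and it missed the threshold without 100 ppb replicate 2 (adjusted p = 0.0586) or either 0 ppb array.

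Metabolic genes fell singly. apoeb, an apolipoprotein E gene, had 8.28 and 8.42 at 100 ppb, against 10.19 and 10.51 at 0 ppb (-2.0 ± 0.23, adjusted p = 0.00122), the only 1 of 32 tested lipid genes that was called. gapdhs, a second copy of the glycolytic gene gapdh, had 7.43 and 7.31 at 100 ppb, against 8.92 and 9.11 at 0 ppb (-1.64 ± 0.13, adjusted p = 7.96e-05). gapdh itself had 12.16 and 12.02 at 100 ppb, against 12.45 and 11.98 at 0 ppb, where the pools overlapped (-0.13, adjusted p = 0.659). gapdhs was the only 1 of 28 glycolytic genes that was called, and 22 of the 28 lay below 0 (median -0.20), among them lactate dehydrogenase ldha (-0.90, adjusted p = 0.0303). rbp2a, a cellular retinol-binding protein, had 5.27 and 4.95 at 100 ppb, against 6.53 and 6.61 at 0 ppb, the only 1 of 15 retinoid genes that was called (-1.46 ± 0.21, adjusted p = 0.00373). Without 0 ppb replicate 2 or 100 ppb replicate 2 it missed the threshold (adjusted p up to 0.0586). aldh1a2, which makes retinoic acid, differed by -0.54 (adjusted p = 0.0863).

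Among 45 tested genes of redox defence 2 fell (4.44%, where 1.03% of all tested genes fell) and none rose. selenop, the selenium carrier selenoprotein P, had 7.77 and 7.74 at 100 ppb, against 8.93 and 8.95 at 0 ppb (-1.19 ± 0.20, adjusted p = 0.0097). txnb, a thioredoxin, had 5.09 and 5.31 at 100 ppb, against 6.49 and 6.54 at 0 ppb (-1.32 ± 0.23, adjusted p = 0.0119). The pools were apart in both, but each call ended without any 1 of the 4 arrays, with an adjusted p of up to 0.112 for selenop without 100 ppb replicate 2 and 0.114 for txnb without 100 ppb replicate 1. Peroxiredoxin 1, prdx1, lay higher at 100 ppb on all 3 of its probe sets, with differences of 0.85, 0.67 and 0.52, of which 2 passed on p (0.00275 and 0.0092) and none on size. tcnbb, a vitamin B12 carrier that was in no list, had 4.21 and 4.11 at 100 ppb, against 6.72 and 6.58 at 0 ppb, a fall of at least 3.67-fold (adjusted p = 0.000294).

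Solute carriers and aquaporins fell in 3 of 98 tested cases (3.06%, where 1.03% of all tested genes fell) and none rose. aqp3a, a channel for water and glycerol, had 4.86 and 4.72 at 100 ppb, against 6.13 and 6.19 at 0 ppb (2.59-fold lower, adjusted p = 0.00225). slc25a55a, a mitochondrial carrier, had 5.87 and 5.61 at 100 ppb, against 7.08 and 7.03 at 0 ppb (2.48-fold lower). slc3a2a, a heavy chain of amino acid transporters, fell by 1.1 ± 0.28 at an adjusted p of 0.0497, so close to the threshold that its call ended without any 1 of the 100, 0 or 40 ppb arrays (up to 0.317 without 100 ppb replicate 2). Among 39 genes of glycan synthesis and galectins 3 fell, with a list median of 0.0002. gbgt1l4, a glycosyltransferase gene of the ABO and globoside family, had 5.96 and 6.09 at 100 ppb, against 8.31 and 8.10 at 0 ppb (4.53-fold lower). Its level did not follow the dose, with means of 6.00 at 10 ppb and 7.82 at 40 ppb. The second probe set of gbgt1l4 was also called (-1.09), a call that ended without any 1 of the 4 arrays (smallest difference -1.03). lgals2a, a galectin, had 5.44 and 5.50 at 100 ppb, against 7.15 and 7.24 at 0 ppb (3.31-fold lower), and the galectin-binding protein gene lgals3bp.1 fell by 1.46, a call that ended without 0 ppb replicate 1 (adjusted p = 0.0709), 0 ppb replicate 2 or 100 ppb replicate 1. The single fall among 5 tested genes of fat and vessel cells was cebpa, a transcription factor of adipocyte, liver and myeloid cells, with 5.20 and 4.82 at 100 ppb, against 6.53 and 6.23 at 0 ppb (-1.37 ± 0.20, adjusted p = 0.00374). Without 0 ppb replicate 1 or 100 ppb replicate 2 it missed the threshold (adjusted p up to 0.0635).

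**Figure D4:**
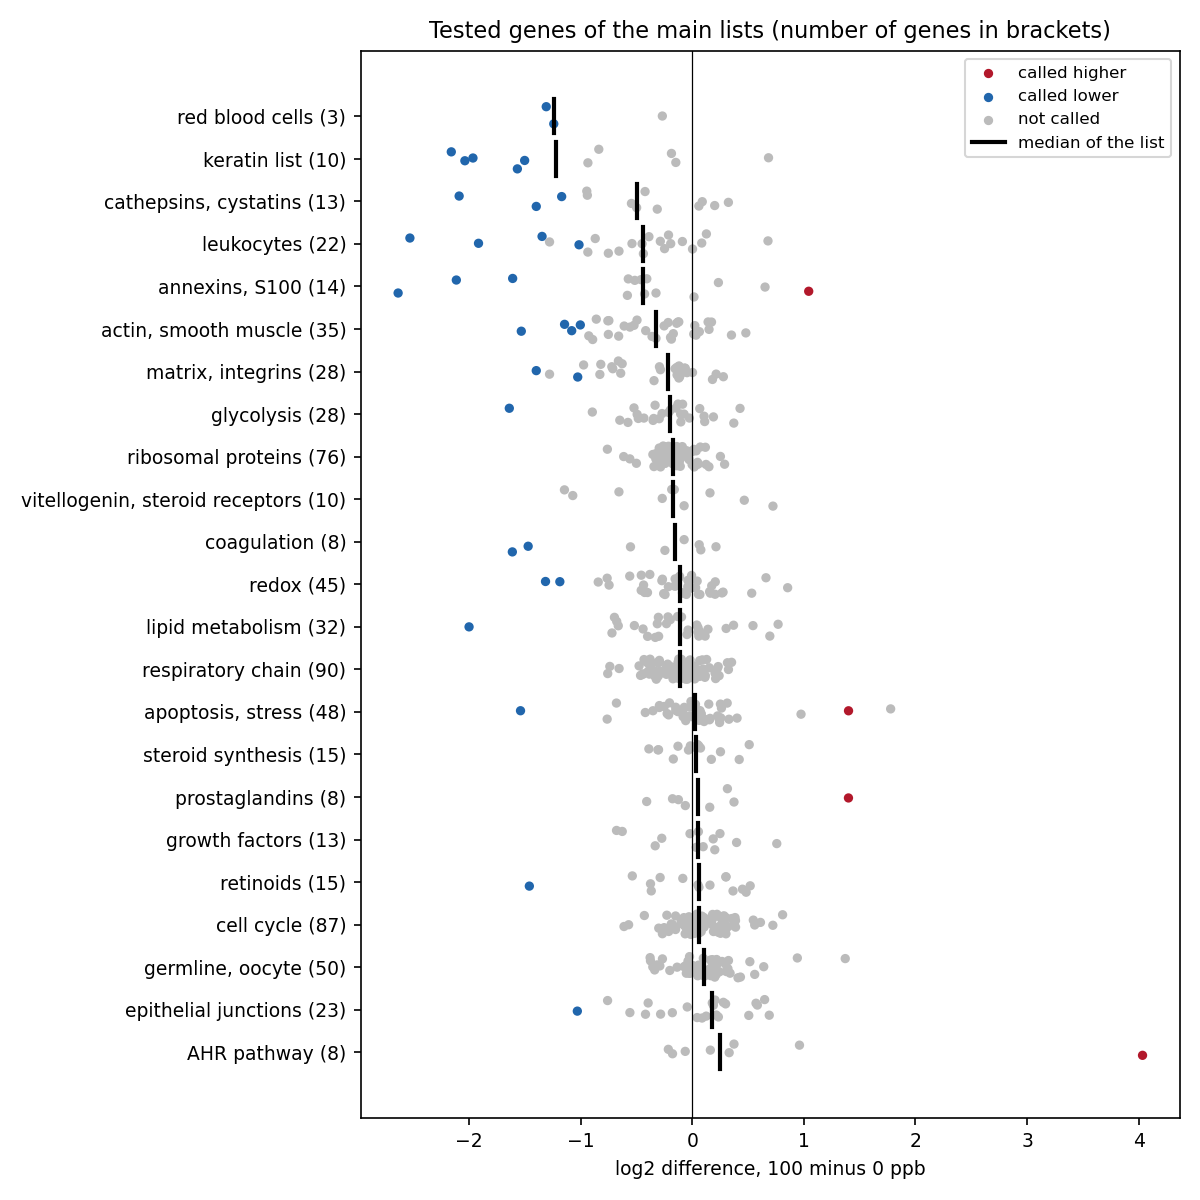
Log2 difference, 100 minus 0 ppb, of each tested gene (brightest probe set) of 23 of the 34 lists, with lists ordered down the page by their median (black bar) and the number of tested genes in brackets. The keratin and red blood cell lists have medians of -1.22 and -1.24 with most members left of 0. The germline, cell cycle and respiratory chain lists, with 50, 87 and 90 tested genes, hold no called gene, and most members lie near 0, with dnd1 of the germline list at 1.37. Of all tested genes 1.26% were called, so a count of 0 in any 1 of these lists is near the background.

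Regulators of transcription or mRNA stability, singled out among the called genes, went both ways. They formed no list, so their share was not tested. Those that rose included id3, znf503 and hnf1bb, given below, and tefb (1.04), whose call ended without any 1 of the 4 arrays. Those that fell included cebpa above, neurod6b below and the 4 given next. junba, a JunB component of the transcription factor AP-1, had 5.70 and 5.22 at 100 ppb, against 7.11 and 6.88 at 0 ppb (-1.54 ± 0.18, adjusted p = 0.00144). klf2b, a Krüppel-like factor, fell by a factor of 1.86 or more (adjusted p = 0.00901), and without 100 ppb replicate 1 it missed the threshold (adjusted p = 0.106). zfp36l1b, of the family that destabilises AU-rich mRNAs, fell by 1.16 (adjusted p = 0.00316), and mafbb, a Maf transcription factor, by 1.05 (adjusted p = 0.0064). The call of mafbb ended without 0 ppb replicate 2 (-0.86, adjusted p = 0.0808) or either 100 ppb array. Of 12 tested genes of neural type 2 fell. neurod6b, a basic helix-loop-helix factor, had 4.38 and 4.79 at 100 ppb, against 6.46 and 6.57 at 0 ppb (-1.93 ± 0.22, adjusted p = 0.00105), with 1 of the 2 arrays at 100 ppb not above the tag controls. epdl2, of the ependymin family, fell by 1.08 (adjusted p = 0.0338) and was not called without any 1 of the 100, 0 or 40 ppb arrays (adjusted p up to 0.225 without 100 ppb replicate 1).

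The rises came from few genes, 20 with an established symbol against 59 such genes among the falls. crp, a C-reactive protein gene of the pentraxin family, had 11.32 and 11.01 at 100 ppb, against 9.28 and 9.75 at 0 ppb, a difference of 1.65 ± 0.17 (3.14-fold, adjusted p = 0.000552). It was the only 1 of 24 acute phase and complement genes that was called. Others of that list were not called, including serpina1l, an antiprotease gene, with 6.75 and 6.86 at 100 ppb, against 5.45 and 5.53 at 0 ppb (1.32 ± 0.45, adjusted p = 0.114). With the scan day as a block, which also takes the spread of the 10 ppb pool out of the fit, serpina1l was called (adjusted p = 8.77e-05). Haptoglobin, hp, which binds free haemoglobin, had 5.17 and 5.00 at 100 ppb, against 6.65 and 6.56 at 0 ppb. Its difference of -1.52 ± 0.39 had an adjusted p of 0.0522, and of 0.0303 with the replicate number as a block. The arrays of serpina1l and hp at 100 and 0 ppb did not overlap, and the SE pools the spread of all 4 doses.

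ptgdsb.1, a prostaglandin D synthase of the lipocalin family, had 6.82 and 6.59 at 100 ppb, against 5.26 and 5.35 at 0 ppb (1.4 ± 0.17, adjusted p = 0.00149), the only 1 of 8 prostaglandin genes that was called. The cyclooxygenase ptgs1 differed by -0.41 (adjusted p = 0.18). id3, an inhibitor of basic helix-loop-helix factors and a target of BMP signalling, had 9.16 and 9.15 at 100 ppb, against 8.01 and 7.89 at 0 ppb (1.2 ± 0.17, adjusted p = 0.00343), and missed the threshold without 0 ppb replicate 2 (adjusted p = 0.0547). In ptgdsb.1 and id3 both 100 ppb arrays were above both 0 ppb arrays. znf503, a zinc finger gene, had 7.74 and 7.87 at 100 ppb, against 6.65 and 6.78 at 0 ppb (1.09 ± 0.13, adjusted p = 0.00144). hnf1bb, a homeobox transcription factor, had 6.37 and 6.28 at 100 ppb, against 5.31 and 5.05 at 0 ppb (1.15 ± 0.23, adjusted p = 0.0221), a call that ended without any 1 of the 4 arrays (up to 0.155 without 0 ppb replicate 2). adprm, a manganese-dependent phosphatase of ADP-ribose, had 6.56 and 6.74 at 100 ppb, against 5.24 and 5.40 at 0 ppb (1.33 ± 0.18, adjusted p = 0.00272). vstm2lb, of the immunoglobulin superfamily, rose by 1.37 (adjusted p = 0.000835).

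Of 48 tested genes of apoptosis and stress 1 rose and 1, junba, fell. pmaip1, the BH3-only gene also called Noxa, had 8.63 and 8.66 at 100 ppb, against 7.31 and 7.18 at 0 ppb on 1 probe set (1.4 ± 0.17, adjusted p = 0.00145). A second probe set had 7.84 and 7.72 at 100 ppb, against 7.52 and 7.43 at 0 ppb (0.31, adjusted p = 0.221). gadd45ab, a stress-response gene, had 6.39 and 6.39 at 100 ppb, against 5.55 and 5.29 at 0 ppb (0.97 ± 0.16, adjusted p = 0.00725), under the minimum. ddit4, a stress-induced inhibitor of mTOR signalling, had 9.45 and 8.13 at 100 ppb, against 8.05 and 5.97 at 0 ppb. Its arrays differed by scan day within each pool, so the difference of 1.78 ± 1.08 had an adjusted p of 0.36, and of 0.045 with the replicate number as a block.

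Where a gene that rose had several tested probe sets, they did not all pass. Of 7 such genes none had all its tested probe sets called, whereas 3 of 8 such genes that fell did, ctsl.1, f13a1b and gbgt1l4, the last with 1 call that ended without any 1 of the 4 arrays. Both probe sets of ctsl.1 and the second of gbgt1l4 averaged under the filter level of 5.11 at 100 and at 10 ppb. They were tested only because other pools read higher. The probe sets of f13a1b share an ID stem, as do those of gbgt1l4. The agreement within these genes therefore adds no support to their calls. The 15 uncalled probe sets of called genes had the sign of the called one in 10 cases. npm1a, a nucleolar histone chaperone, rose by 1.09 on a dim probe set (adjusted p = 0.0243), a call that ended without 0 ppb replicate 2, either 100 ppb array (adjusted p up to 0.19) or either 40 ppb array. On its bright probe set it had 10.40 and 10.23 at 100 ppb, against 10.49 and 10.34 at 0 ppb (-0.10, adjusted p = 0.589). tmem263 rose by 1.74 on 1 probe set and differed by 0.21 on another (adjusted p = 0.418), and its call ended without 0 ppb replicate 1 or 100 ppb replicate 2 (adjusted p = 0.0754). st8sia7.1, a sialyltransferase gene, rose by 1.4 on 1 probe set and differed by 0.11 on another (adjusted p = 0.579).

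No gene of steroid synthesis was called among 15 tested, and their median was 0.036. Since 1.26% of all tested genes were called, a count of 0 in a list of this size is near the background and says nothing particular to it, here and in the lists of similar size below. cyp19a1a, the ovarian aromatase that makes estradiol, had 6.17 and 6.05 at 100 ppb, against 5.65 and 5.55 at 0 ppb (0.51 ± 0.19, adjusted p = 0.131). fdx1, the electron donor of mitochondrial steroidogenic P450 enzymes, had 10.81 and 10.82 at 100 ppb, against 10.42 and 10.38 at 0 ppb (0.42 ± 0.09, adjusted p = 0.0217), a difference beyond array spread and under the minimum. In both genes the 100 ppb arrays were the higher ones. star, which moves cholesterol into mitochondria, had 4.65 and 4.53 at 100 ppb, against 5.10 and 5.42 at 0 ppb, and was too dim to be tested, as was the receptor gene fshr. The 95% confidence interval of the cyp19a1a difference ran from 0.10 to 0.92, taken for this gene alone, so these p-values do not show that the levels were equal.

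Among 10 tested vitellogenin and steroid receptor genes none was called. vtg2 had 9.63 and 10.01 at 100 ppb, against 10.75 and 11.04 at 0 ppb (-1.07 ± 0.44, adjusted p = 0.178). With the scan day as a block, which also takes the spread of the 10 ppb pool out of the fit, it was called (adjusted p = 0.000158). vtg4 had 7.86 and 8.46 at 100 ppb, against 9.11 and 9.50 at 0 ppb (-1.15 ± 0.34, adjusted p = 0.0804, and 0.0109 with the replicate number as a block). vtg4 was called with the scan day as a block too. All 100 ppb arrays were below all 0 ppb arrays in both genes. The main source of these yolk precursors in fish is the liver, and 0 of 15 liver and pancreas genes were called (median -0.34). The summed level of 6 liver markers was 433 and 461 in normalised intensity at 100 ppb, against 382 and 423 at 0 ppb. The higher sum rested on serpina1l (difference 1.32, not called). Of the others, tfa (-0.35) and fgb (-0.25) lay lower at 100 ppb, and fabp10a (0.14), apobb.1 (0.07) and bhmt (0.53) higher. The sum is therefore no measure of the 6 markers alike. The summed level of 3 exocrine pancreas markers, most of it from prss1, was 64.2 and 67.0 at 100 ppb, against 147 and 121 at 0 ppb. The part of liver and pancreas in the vitellogenin values was not tested.

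Growth factors of the gonad were not called, 0 of 13 tested. gsdf, a TGF-beta family factor of the somatic cells of the fish gonad, had 6.34 and 6.41 at 100 ppb, against 5.67 and 5.57 at 0 ppb (0.76 ± 0.18, adjusted p = 0.0373). pdgfaa, a platelet-derived growth factor chain, differed by -0.68 (adjusted p = 0.0535). Germline and oocyte genes were not called in any of 50 tested cases, with a median of 0.10 and values from -0.38 for buc to 1.37 for dnd1. That median was 0.33 under the common median scaling and 0.24 in the deposited scaling. With 1.26% of all tested genes called, a count of 0 in 50 is near the background too. buc, the organiser of the Balbiani body, had 10.77 and 10.66 at 100 ppb, against 11.11 and 11.08 at 0 ppb (adjusted p = 0.0706). zar1, a maternal effect gene, had 12.06 and 12.13 at 100 ppb, against 11.68 and 11.86 at 0 ppb (0.32, adjusted p = 0.0539). dnd1, an RNA-binding protein of germ cells, had 9.97 and 9.92 at 100 ppb, against 9.27 and 7.88 at 0 ppb, with the 0 ppb arrays far apart (adjusted p = 0.0697, and 0.0138 with the replicate number as a block). On its second probe set it differed by 0.47 (adjusted p = 0.0843).

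The lists of general cell functions held no called gene, where 1.26% of all tested genes were called. They were 76 genes of the ribosomal protein list, 66 translation factors, 103 proteasome and ubiquitin genes, 90 genes of the respiratory chain, 87 of the cell cycle, 72 chaperones and 23 histones and HMG proteins. Their medians lay between -0.18 for the ribosomal proteins and 0.10 for the histones. Under the common median scaling the medians were 0.056 for the ribosomal proteins, 0.14 for the cell cycle and 0.29 for the histones. The striated muscle list also held no called gene, but with 6 tested genes that is near the background and says nothing particular to it. By their names the ribosomal protein list also took in rack1, rps19bp1 and 4 S6 kinase genes, and the muscle list includes the non-muscle myosins myh9a and myh10. The largest single differences in these lists stayed under 1 in size. The endoplasmic reticulum chaperone dnajb11 had 8.49 and 8.48 at 100 ppb, against 7.62 and 7.62 at 0 ppb (0.86 ± 0.12, adjusted p = 0.00373). hmgb1a, a chromatin protein, differed by 0.78 (adjusted p = 0.0137) and rpl5a, a large subunit ribosomal protein, by -0.76 (adjusted p = 0.0177). Over the 34 lists together, 45 of 1117 tested genes were called, 5 higher and 40 lower, and 13 lists held none. Among all 6335 tested genes 80 (1.26%) were called, 15 higher and 65 lower. The lists were chosen with earlier results of these data known, so their larger share is no independent finding.

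The largest difference of all belonged to a probe set with no gene symbol. Dr.25140.7.A1_at read 4.21 and 4.26 at 100 ppb, against 11.13 and 10.81 at 0 ppb. In deposited intensity that is 3.8 and 2.6 at 100 ppb, against 3032.5 and 1255.2 at 0 ppb. The 100 ppb pool was not above the tag controls, which makes the fall at least 73.3-fold (adjusted p = 1.16e-05). This probe set, bright in the 0 ppb pool, thus read no more than background in the 100 ppb pool. Whether the level of a transcript or only its match to the probes differed between pools was not tested. The 10 ppb arrays read 9.53 and 7.82 and the 40 ppb arrays 11.06 and 10.80, so that of the 4 pools only that of 100 ppb read at background. A second probe set with the same ID stem carries the symbol epcam and is its bright probe set above, which did not pass. No gene is named for the first one here. Dr.20686.1.A1_at, also without a symbol, read 6.07 and 5.76 at 100 ppb, against 9.43 and 9.07 at 0 ppb (-3.34 ± 0.17, adjusted p = 5.47e-06). Its levels did not follow the dose, with 5.66 and 5.36 at 10 ppb and 9.68 and 9.53 at 40 ppb. Dr.3374.1.S1_at had 9.77 and 9.84 at 100 ppb, against 12.08 and 11.90 at 0 ppb (4.55-fold lower). Of the 116 called probe sets 15 had no symbol, 6 had several, and 11 carried placeholder symbols. Among the last were si:ch73-380l3.2, which was at least 7.51-fold lower, and zgc:66483, which rose by 2.45 ± 0.34 (adjusted p = 0.00339). The call of zgc:66483 ended without 0 ppb replicate 2 (2.34). Neither followed the dose, as si:ch73-380l3.2 averaged 4.15 at 10 ppb and 6.60 at 40 ppb, and zgc:66483 8.28 at 10 ppb and 6.90 at 40 ppb. These probe sets were singled out after their values were seen.

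The 100 ppb pool was also tested against the pools of the lower doses, which share the 100 ppb arrays with the main comparison. Against 40 ppb, 40 probe sets (0.43%) were called, 15 higher (0.161%) and 25 lower (0.269%). Against 10 ppb, 148 (1.59%) were called, 48 higher (0.516%) and 100 lower (1.08%). The deposited scaling left 4 and 61 of these calls, 0 and 11 of them higher. cyp1a averaged 5.45 at 0 ppb, 7.93 at 10 ppb, 8.58 at 40 ppb and 9.48 at 100 ppb. It was higher at 100 than at 10 ppb (1.55, adjusted p = 0.028), and the difference of 0.90 ± 0.32 from 40 ppb did not pass (adjusted p = 0.288). anxa1a averaged 9.76 at 0 ppb, 8.92 at 10 ppb, 7.86 at 40 ppb and 7.12 at 100 ppb, lower than at 10 ppb by a called difference and than at 40 ppb by -0.74 ± 0.12 (adjusted p = 0.0236). The 5 keratins that fell were each called lower at 100 than at 10 ppb, by differences of -1.04 to -1.49, and none was called against 40 ppb (-0.46 to -0.95).

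A further group of genes differed at 100 ppb from each of the other pools. f13a1b averaged 7.71 at 0 ppb, 7.75 at 10 ppb, 7.50 at 40 ppb and 5.63 at 100 ppb on the probe set with the larger difference, and was lower at 100 than at 40 ppb by -1.86 ± 0.14 (adjusted p = 0.000195). hbaa1 averaged 8.52 at 0 ppb, 8.64 at 10 ppb, 8.68 at 40 ppb and 7.28 at 100 ppb (against 40 ppb -1.41 ± 0.17, adjusted p = 0.00331). apoeb (-1.65, adjusted p = 0.00982) and rtkn2 (-1.63, adjusted p = 0.00651) were likewise called lower at 100 than at 40 ppb, and both were called lower than at 10 ppb. In f13a1b, hbaa1 and rtkn2 the pools of 10 and 40 ppb differed from 0 ppb by at most 0.21 in size, and in apoeb by -0.70 at 10 ppb and -0.35 at 40 ppb. Among the rises, ptgdsb.1 averaged 5.30 at 0 ppb, 5.11 at 10 ppb, 5.13 at 40 ppb and 6.70 at 100 ppb, and was higher than at 40 ppb by 1.57 ± 0.17 (adjusted p = 0.00245). id3 (1.45, adjusted p = 0.0029), adprm (1.25, adjusted p = 0.01), and the called probe sets of st8sia7.1 (1.28, adjusted p = 0.00982) and epcam (1.25, adjusted p = 0.0425) were also called higher than at 40 ppb and than at 10 ppb. crp and pmaip1 were not called against 40 ppb, with differences of 0.33 and 0.08 (adjusted p = 0.499 and 0.908).

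**Figure D5:**
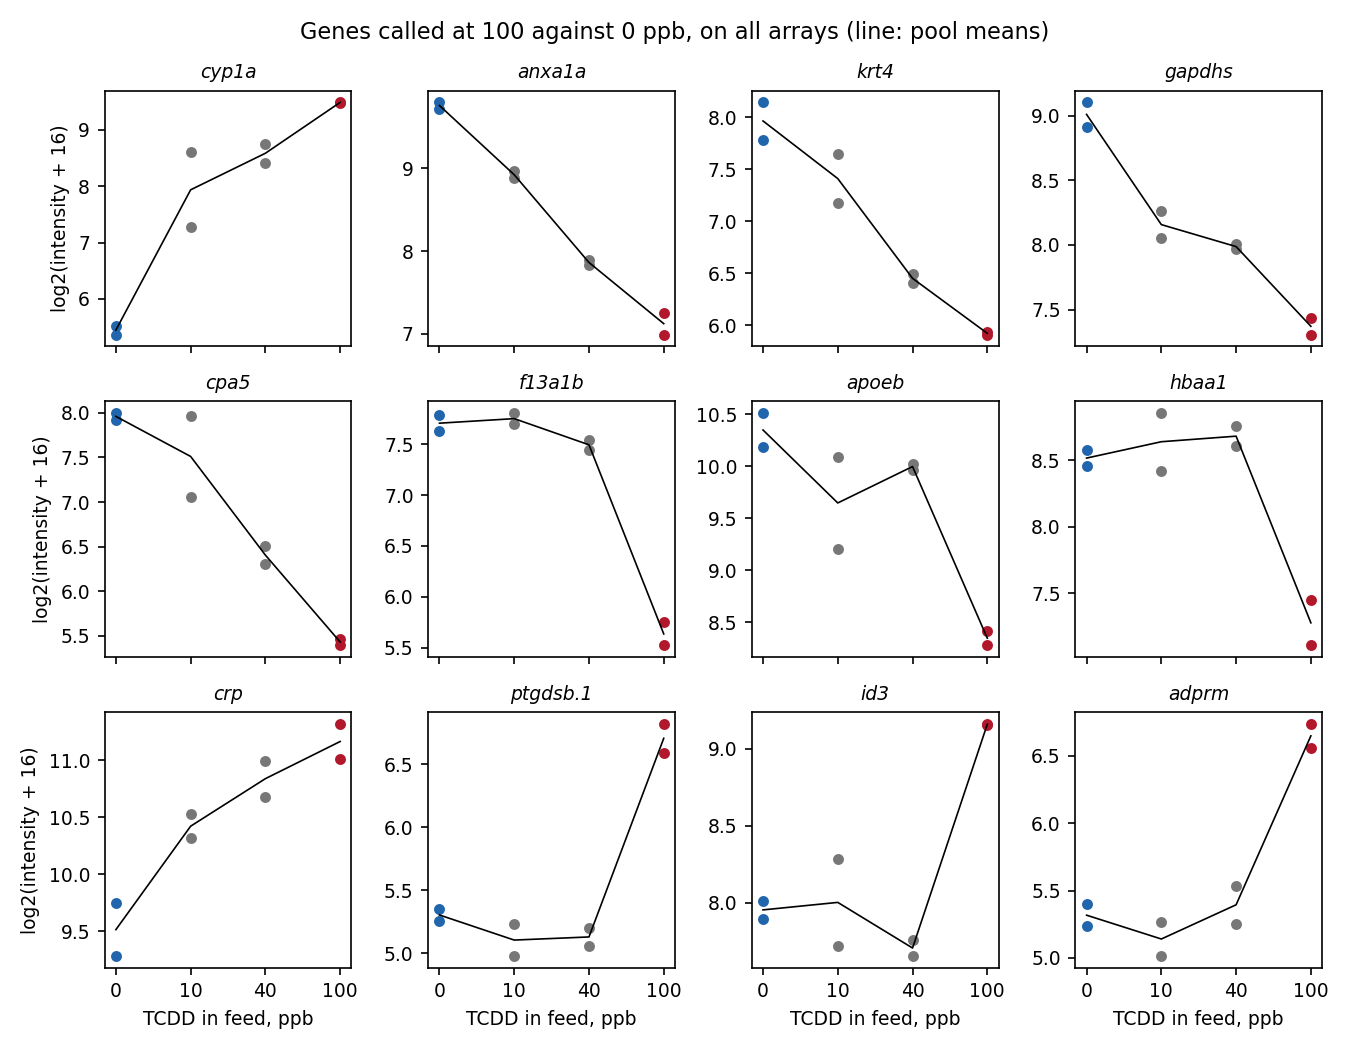
Level of 12 genes called at 100 against 0 ppb on every array, as log2(intensity + 16) after normalisation, by TCDD in the feed (0, 10, 40 and 100 ppb), with a line through the pool means. The 100 ppb arrays are red, the 0 ppb arrays blue and the others grey; cyp1a climbs and anxa1a descends over all doses, whereas f13a1b, hbaa1, ptgdsb.1, id3 and adprm stand apart at 100 ppb.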

How the data were processed

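The authors deposited linear intensities, 1 for each probe set on each array. The submitters' processing notes name MAS5, which combines the probes of a set into 1 signal on each array alone. Software version, scaling target and filters were not given in the sources used here. Instrument files, per the file headers, hold other values, the settings of fluidics station and scanner, and served only for the scan day.

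The array has 15617 probe sets, 115 of them controls that entered no test. The platform annotation gave 1 symbol to 10795 of the other 15502, several to 135 and none to 4572. Intensities were turned into log2(intensity + 16) and quantile normalised over 8 arrays, and the 9301 probe sets whose mean log2 level passed the 40th percentile (5.11) were tested. The 4 pools were fitted as groups in limma 3.58.1 (R 4.3.3; lmFit, eBayes with a variance trend, 4 residual degrees of freedom, 10.5 with the prior), with Benjamini-Hochberg adjustment over all tested probe sets. A call needs an adjusted p under 0.05 and a log2 difference of at least 1 in size. A probe set no brighter than the 95th percentile of 17 tag controls on both arrays of a pool was given as a bound, taken from the lowest level above that percentile. The number of arrays limits the precision. The fit was tested on simulated data, with changes larger than most of the called ones and no variation between fish. That test therefore adds no support to the calls.

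Same-numbered arrays of the 100, 40 and 0 ppb pools share a scan day, per the file headers, and their deviations from the pool means correlated at 0.143 (100 with 0 ppb), 0.298 (100 with 40 ppb) and 0.214 (40 with 0 ppb). The numbers therefore pair these arrays, and the fit with the replicate number as a block is given where it changes a call. The array of 10 ppb replicate 1 was scanned alone on an earlier day. A block on scan day therefore fits that array exactly and takes the spread of the 10 ppb pool out of the fit. Its lower p-values cannot be laid to the pairing by scan day alone. Genes named are the 15 largest called differences each way with 1 symbol that is no placeholder, the called members of 34 gene lists, the best known members of each list, and up to 2 uncalled members with the largest difference; not every one is printed. The comparison and the lists were chosen with earlier results of these data known. Alternatives covered scaling, pseudocount, filter, variance model, arrays in the fit, block and each array left out. No genome or sequence was used here, so coordinates and sequences are not given. A gene table of another assembly served for names and neighbours only.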

Additional observations from a re-analysis of the deposited data

How the results depend on the processing

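The alternatives were compared for the 116 calls against 0 ppb, the 40 against 40 ppb, the 148 against 10 ppb and the 45 called genes of the lists, in this order. The deposited scaling left 13, 4, 61 and 6, with 1, 0 and 11 higher in the first 3 (7.69%, 0% and 18.0% of calls, where the reported scaling had 24.1%, 37.5% and 32.4%). Pseudocount 64 gave 44, 17, 74 and 23, and a filter at the 60th percentile gave 49, 20, 62 and 22. Pseudocount 1 raised the calls against 0 ppb to 197. With no minimum difference 481, 83, 332 and 120 passed. Scan day as a block gave 236 against 10 ppb, and 130 against 0 ppb. Without 1 array at a time the counts ran from 71 to 129, 10 to 60, 68 to 224 and 29 to 52; against 0 ppb they were 82 and 83 when 100 ppb replicate 1 or 2 was left out, and 73 and 71 when 0 ppb replicate 1 or 2 was. The cause of these shifts was not tested.

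With the replicate number as a block (replicate pairing), 126 probe sets were called against 0 ppb, all 116 among them, 158 against 10 ppb, 40 against 40 ppb, and 50 genes of the lists. The block brought calls to vtg4, mmp13a, hp, dnd1 and ddit4 and ended no call among the named genes. Scan day as a block brought calls to the same 5 genes and to vtg2, serpina1l and kcnn1b. Each of the 5 had a lower adjusted p in that fit than with the replicate number as a block. The scan day fit also leaves out the spread of the 10 ppb pool, so the 2 blocks are not alike. Of the 116 probe sets 55 kept their call without any 1 array. In every alternative that tested them 10 did, which were cyp1a, anxa1a, krt18b, cpa5, tcnbb, both probe sets of ctsl.1, si:ch73-380l3.2 and 2 without a symbol. Not all of these were tested in all 20 alternatives. The probe sets of ctsl.1 were tested in 15 and 18, tcnbb and si:ch73-380l3.2 in 18, and krt18b in 19. An alternative that left a probe set untested says nothing about its call. No named gene changed sign in an alternative that called it. Each dose is 1 pool of 5 females, so variation between fish is not measured, and dim probe sets are compressed by the pseudocount.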
